A study of Mus musculus with 18 samples.

Results

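Tumour necrosis factor (TNFα), its 2 receptors and the proteins that gather on the receptor were followed in bulk RNA sequencing (RNA-seq) of endothelial cells (ECs), which form the inner lining of vessels. The 8 genes Tnf, Tnfrsf1a, Tnfrsf1b, Tradd, Ripk1, Traf2, Birc2 and Birc3 were taken by name from a table of 16248 genes. All 8 lay above the filter on low values. Values are FPKM (fragments per kilobase, divided by a size set for each library), a level per length, so different genes can be set side by side.

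TNFα is a cytokine that is made as a trimer on the cell membrane and shed by a protease. It binds TNFR1 (Tnfrsf1a), which most cells carry, and TNFR2 (Tnfrsf1b), which is more restricted and is found on ECs and leukocytes. Bound TNFR1 recruits the adaptor TRADD and the kinase RIPK1, and then TRAF2 with the ubiquitin ligases cIAP1 (Birc2) and cIAP2 (Birc3). Ubiquitin chains on RIPK1 hold the receptor complex in a state that activates NF-κB, and the same components can form a second complex that kills the cell. In ECs, TNFα is known for switching on adhesion molecules and chemokines.

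Female mice of the FVB strain were used throughout. Normal ECs were taken from mammary fat pads of wild-type animals, MMTV-PyMT ECs from tumours that arose in animals of the MMTV-PyMT genotype, and Implanted ECs from tumours placed in wild-type hosts. The MMTV promoter drives a viral oncogene in mammary epithelium. For the implanted model, the study cultured MMTV-PyMT tumour cells and put them into the fat pad in Matrigel, so host ECs there lack the transgene. Each tissue was injected with phosphate-buffered saline (PBS) or with cGAMP, the ligand of the innate immune protein STING, and was harvested 3 h later. Dissociated cells were sorted as live, CD45-negative and CD31-positive. There were 6 groups of 3 libraries, 18 in all, and the ages of the mice were not in the labels. A figure legend of the study gives separate mice from independent experiments, but which library belongs to which experiment was not stated.

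Recovered reads ranged from 9170910 to 12178526 per library. The library size behind the deposited FPKM was not this read total. It was 1.1559 times the recovered reads in Normal PBS 1, and 0.7365, 0.812 and 0.831 times in the 3 Implanted cGAMP libraries, the lowest ratios. For the same share of reads, FPKM as deposited are thus higher in Implanted cGAMP than in the other groups. Scaling by total reads, used below, replaces that size by the recovered reads. Of 7 EC markers, all were listed in every library, and their summed FPKM lay between 567 and 1473. Markers of other cells were present too. The sum of 4 epithelial markers ranged from 202 to 749 FPKM and that of 6 mural and fibroblast markers from 296 to 921 FPKM. Of 11 leukocyte and myeloid markers 10 were listed, none at 0, and their summed FPKM was 74.3 to 103 in Normal PBS, 75.1 to 135 in Normal cGAMP, 99.9 to 115 in MMTV-PyMT PBS, 128 to 151 in MMTV-PyMT cGAMP, 123 to 186 in Implanted PBS and 143 to 480 in Implanted cGAMP. Lymphoid markers (2 of 3 listed) summed to 0.235 to 17.0 FPKM, and adipocyte markers were not analysed here. The highest leukocyte and myeloid sum was that of Implanted cGAMP replicate 2. Ptprc, which encodes the CD45 used in the sort, was between 0.156 and 0.333 FPKM in the MMTV-PyMT libraries and reached 9.73 FPKM in a Normal and 9.24 FPKM in an Implanted library. In sorted but bulk samples, fewer cells of a type and less RNA per cell cannot be told apart.

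RefSeq promoters (build GRCm38.p6) matched 7 of the 8 genes by symbol, 2 of them with 2 entries, and Tradd was the gene without an entry. The 250 bases before the start are shown for Tnf, the cytokine itself, for Tnfrsf1b, the receptor whose response differed between tissues, and for Birc3, the receptor complex gene with the largest rises. They read 5′ to 3′ on the strand of the gene, which is the minus strand for all of them. Positions are chr17:35202008-35202257 for Tnf, chr4:145246871-145247120 for Tnfrsf1b and chr9:7873171-7873420 for Birc3. Capitals mark matches, on either strand, to TATAAA or to the core of an interferon-stimulated response element (ISRE), which is GAAA, any 2 bases and GAAA again.
Tnf: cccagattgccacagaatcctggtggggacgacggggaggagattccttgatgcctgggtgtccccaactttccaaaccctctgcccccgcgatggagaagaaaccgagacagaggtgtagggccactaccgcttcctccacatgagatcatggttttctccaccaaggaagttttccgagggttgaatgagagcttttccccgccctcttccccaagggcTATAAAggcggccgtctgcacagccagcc
Tnfrsf1b: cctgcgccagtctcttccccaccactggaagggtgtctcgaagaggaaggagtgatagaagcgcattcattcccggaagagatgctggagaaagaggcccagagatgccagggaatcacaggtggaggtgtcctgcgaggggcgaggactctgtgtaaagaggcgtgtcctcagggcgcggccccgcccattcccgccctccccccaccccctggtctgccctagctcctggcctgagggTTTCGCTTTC
Birc3: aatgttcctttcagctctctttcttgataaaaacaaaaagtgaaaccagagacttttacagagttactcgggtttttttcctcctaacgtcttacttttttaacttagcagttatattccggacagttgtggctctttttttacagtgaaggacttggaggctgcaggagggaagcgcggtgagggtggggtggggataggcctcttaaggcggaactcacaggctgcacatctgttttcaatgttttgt
Tnf had a match to TATAAA on its own strand, at 29 to 24 bases before its start. It was the only one of the 7 genes with a match on either strand, against 12.4% of 32851 upstream sequences in the same table. Tnfrsf1b had the only ISRE core match, in the last 10 bases before its start and on the opposite strand, where 2.98% of all upstream sequences hold one. No match to the κB consensus was present in the 250 bases of any of the 7 genes, and 7.25% of all upstream sequences have one. These are matches of letters within a short window.

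Tnf had the largest log2 response to cGAMP of the 8 genes in Normal and MMTV-PyMT ECs. In Implanted ECs it lay close to Birc3 (1.90 and 1.81), and Birc3 was ahead without Implanted cGAMP 2 (1.69 and 1.87) or Implanted PBS 2 (1.67 and 1.77). It lies at chr17:35199381-35202007 on the minus strand (GENCODE M21, GRCm38), with 1639 bases of exon and no overlapping gene. In Normal ECs its level was 2.33, 2.47 and 2.59 FPKM under PBS and 21.04, 20.2 and 21.9 FPKM under cGAMP. All cGAMP libraries lay far above all PBS libraries, and replicates were close together, at 2.46 ± 0.13 and 21.04 ± 0.86 FPKM (mean ± SD, n = 3). The log2 change was 2.67 (SE 0.27), with an adjusted p of 2.52e-06 by limma over the 13983 genes tested. All log2 changes are of FPKM + 1, so for low genes, such as Tnf under PBS, they are smaller than the change in FPKM itself.

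In MMTV-PyMT ECs Tnf was 5.52, 3.43 and 4.03 FPKM under PBS and 61.0, 27.0 and 27.4 FPKM under cGAMP. One cGAMP library, replicate 1, stood far above the other 2, and the groups did not overlap. The change of Tnf was 2.80 (SE 0.27, adjusted p = 1.4e-06), and 2.42 without that library (adjusted p = 1.2e-06). Its leukocyte and myeloid marker sum was 151 FPKM, against 128 and 146 FPKM in the other 2 cGAMP libraries. Most of these sums was Cd14 (98.3 to 118 FPKM), and the part of leukocytes in the result was not tested.

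In Implanted ECs Tnf was 10.25, 6.06 and 10.6 FPKM under PBS and 30.8, 47.4 and 30.0 FPKM under cGAMP. The groups did not overlap here either, and the starting level was higher than in the other tissues. Tnf rose by 1.90 (SE 0.27, adjusted p = 3.38e-05). The library with 47.4 FPKM, replicate 2, was also the one with the highest leukocyte and myeloid sum, 480 against 143 and 168 FPKM. Without it the change of Tnf was 1.69 (adjusted p = 0.000238). The counts behind Tnf ran from 45 to 48 reads in Normal PBS up to 1084 reads in MMTV-PyMT cGAMP replicate 1. Sampling of reads thus limits the Normal PBS values most, although these were close together between libraries (SD 0.13 FPKM).

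In order of mean level, Tnf went from Normal PBS (2.46 FPKM) through MMTV-PyMT PBS (4.33), Implanted PBS (8.98) and Normal cGAMP (21.04) to Implanted cGAMP (36.1) and MMTV-PyMT cGAMP (38.5). In FPKM as deposited, the ranges of neighbours overlapped only for the last 2 groups, and under cGAMP each tumour EC library had more Tnf than any Normal EC library. By share of recovered reads the latter did not hold. Implanted cGAMP 1 had 422 Tnf reads of 11353828, a smaller share than the 395 of 10316017 in Normal cGAMP 1. Mean Tnf FPKM under cGAMP was 8.55 times that under PBS in Normal ECs, 8.89 times in MMTV-PyMT ECs and 4.02 times in Implanted ECs.

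**Figure D1:**
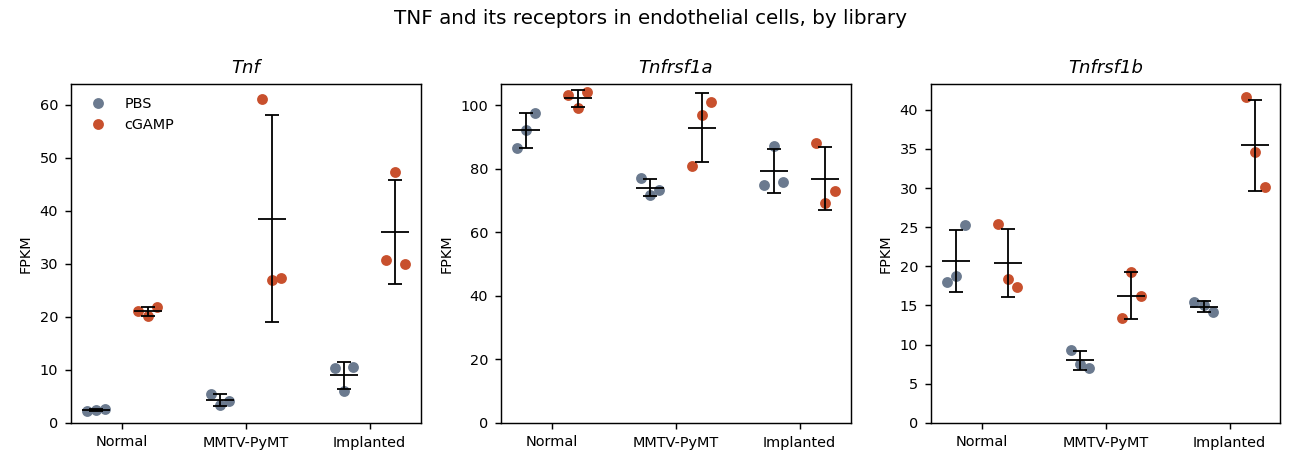
FPKM of Tnf, Tnfrsf1a and Tnfrsf1b (vertical axes, from 0) in each library of Normal, MMTV-PyMT and Implanted ECs (horizontal axis). Points are libraries (grey PBS, orange cGAMP), horizontal lines are means and bars are SD (n = 3). Tnf is above its PBS range under cGAMP in all tissues, Tnfrsf1a varies between 69.4 and 104 FPKM, and Tnfrsf1b is above its PBS range in both tumours but not in Normal ECs.

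The receptors behaved differently from each other. Tnfrsf1a, the gene of the death domain receptor TNFR1, was the most abundant of the 8 in all 18 libraries and moved little. It lies at chr6:125349362-125362484 on the plus strand. Its level was 86.4, 92.3 and 97.5 FPKM in Normal PBS and 103, 99.1 and 104 FPKM in Normal cGAMP. The groups did not overlap, but the change of 0.15 (95% interval -0.06 to 0.36) did not pass the test (adjusted p = 0.272). In MMTV-PyMT ECs Tnfrsf1a was 77.0, 71.8 and 73.3 FPKM under PBS and 80.7, 97.0 and 101 FPKM under cGAMP. The change of 0.32 (SE 0.10) only just passed (adjusted p = 0.048), and it failed when any of 14 of the 18 libraries was left out (highest adjusted p = 0.182), that is, any but MMTV-PyMT cGAMP 1, Implanted PBS 2, Implanted cGAMP 1 or Implanted cGAMP 2. It also failed with quantile normalization (0.17, adjusted p = 0.139), equal sums of FPKM (0.27, adjusted p = 0.104), scaling by total reads (0.18, adjusted p = 0.107), no filter (adjusted p = 0.0526) and no trend (adjusted p = 0.0603). In Implanted ECs the values were 74.7, 87.2 and 75.9 FPKM under PBS and 88.1, 69.4 and 73.0 FPKM under cGAMP, which overlapped, with a change of -0.05 (adjusted p = 0.725) that became -0.36 and passed (adjusted p = 0.00154) when libraries were scaled by total reads. For Implanted minus MMTV-PyMT ECs the difference in the response of Tnfrsf1a was -0.37 (adjusted p = 0.111), which passed without MMTV-PyMT cGAMP 1 or Implanted cGAMP 1 (lowest adjusted p = 0.0297) and with scaling by total reads (-0.55, adjusted p = 0.00582).

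Tnfrsf1b, the gene of TNFR2, responded in ECs of both tumours and not detectably in Normal ECs. It lies at chr4:145213463-145246870 on the minus strand. In Normal ECs it was 18.01, 18.8 and 25.3 FPKM under PBS and 25.4, 18.4 and 17.4 FPKM under cGAMP, a change of -0.02 (95% interval -0.38 to 0.33, adjusted p = 0.939). The 2 groups covered nearly the same range. The highest library of each, Normal PBS 3 and Normal cGAMP 1, also had the highest lymphoid marker sum of its group. These sums were 11.2 against 5.81 and 4.02 FPKM under PBS, and 17.0 against 2.78 and 3.41 FPKM under cGAMP. The part of lymphoid cells in these Tnfrsf1b values was not tested. In MMTV-PyMT ECs Tnfrsf1b went from 9.37, 7.52 and 7.07 FPKM under PBS to 13.3, 19.3 and 16.2 FPKM under cGAMP. The groups did not overlap, and the rise was 0.94 (SE 0.17, adjusted p = 0.00124). In Implanted ECs Tnfrsf1b was 15.5, 15.0 and 14.1 FPKM under PBS and 41.6, 34.6 and 30.1 FPKM under cGAMP, a rise of 1.19 (SE 0.17, adjusted p = 3.31e-05). In FPKM as deposited, the highest level of this receptor was that of Implanted cGAMP, above every library of the other 5 groups. By share of recovered reads the groups overlapped, with 1163 Tnfrsf1b reads of 12178526 in Implanted cGAMP 3 and 1111 of 10316017 in Normal cGAMP 1. Without Implanted cGAMP replicate 2 the rise was 1.20.

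The interaction test for Tnfrsf1b passed for both tumours. Its response exceeded that of Normal ECs by 0.96 in MMTV-PyMT ECs (SE 0.24, adjusted p = 0.0206) and by 1.21 in Implanted ECs (SE 0.24, adjusted p = 0.0021). The difference between the tumours was 0.25 (95% interval -0.25 to 0.75, adjusted p = 0.563). The part of the lymphoid transcripts of the Normal libraries in the differences from Normal ECs was not tested. In MMTV-PyMT ECs the difference from Normal was no longer past the threshold without any of 5 libraries, namely Normal PBS 3, Normal cGAMP 2, Normal cGAMP 3, MMTV-PyMT PBS 3 and MMTV-PyMT cGAMP 2 (highest adjusted p = 0.0614).

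Within a library, the ratio of Tnfrsf1a to Tnfrsf1b is free of scaling between libraries. It was 4.52 ± 0.58 in Normal PBS and 5.14 ± 0.99 in Normal cGAMP (mean ± SD, n = 3). In MMTV-PyMT ECs it went from 9.38 ± 1.09 under PBS to 5.78 ± 0.66 under cGAMP. In Implanted ECs it went from 5.34 ± 0.49 to 2.18 ± 0.22. TNFR1 transcripts outnumbered those of TNFR2 per length in every library, and by the smallest factor, 2.004, in an Implanted cGAMP library.

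Of the receptor complex genes, Tradd, the adaptor that binds the death domain of TNFR1, had the fewest reads. It lies at chr8:105258286-105264609 on the minus strand, with 38 to 128 reads per library. Tradd was 3.585, 4.61 and 3.61 FPKM in Normal PBS and 1.78, 2.715 and 3.205 FPKM in Normal cGAMP. The cGAMP libraries lay below the PBS libraries, and the fall of 0.48 on the log2 scale (95% interval of the change -0.86 to -0.11) passed narrowly (adjusted p = 0.0466) and failed when any of 11 of the 18 libraries was left out (highest adjusted p = 0.204), that is, any but Normal cGAMP 3, MMTV-PyMT cGAMP 2 or 3, Implanted PBS 1 or 2, or Implanted cGAMP 1 or 2. It also failed with no filter, equal sums of FPKM, scaling by total reads and voom (adjusted p = 0.0526, 0.0587, 0.05 and 0.0532). In MMTV-PyMT ECs Tradd was 4.28, 4.65 and 3.63 FPKM under PBS and 4.30, 2.84 and 4.43 FPKM under cGAMP, a change of -0.11 (adjusted p = 0.751). In Implanted ECs it was 5.45, 7.75 and 6.02 FPKM under PBS and 4.04, 5.86 and 5.08 FPKM under cGAMP, a change of -0.30 (adjusted p = 0.185) that passed at -0.56 with scaling by total reads (adjusted p = 0.0194). The groups overlapped in both tumours, and no difference between tissues in the response of Tradd passed.

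Ripk1, the kinase at the fork between NF-κB activation and cell death, gave the most even response. The gene lies at chr13:34002363-34037147 on the plus strand and overlaps Serpinb6a, Gm17083 and Gm17084. Of its 75-base transcript windows 5.24% also occur in Gm17084, so its counts are uncertain by reads that match both. In Normal ECs Ripk1 was 9.07, 8.94 and 9.68 FPKM under PBS and 15.2, 15.9 and 15.6 FPKM under cGAMP (change 0.70, SE 0.12, adjusted p = 0.000345). In MMTV-PyMT ECs it was 7.95, 7.21 and 6.52 FPKM and then 10.8, 14.0 and 13.5 FPKM (change 0.74, SE 0.12, adjusted p = 0.000388). In Implanted ECs it was 8.22, 10.1 and 9.40 FPKM and then 18.5, 15.8 and 13.1 FPKM (change 0.71, SE 0.12, adjusted p = 0.000159). The groups did not overlap in any tissue, and Ripk1 rose in each. The 3 differences between tissues were 0.04 (95% interval -0.31 to 0.39), 0.01 (-0.34 to 0.36) and -0.03 (-0.38 to 0.32), for MMTV-PyMT minus Normal, Implanted minus Normal and Implanted minus MMTV-PyMT. Intervals of this width do not show equal responses, and the signs of the first and second difference turned with scaling by total reads (-0.08 and -0.29).

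Traf2, which brings the cIAP ligases to the receptor, rose in Implanted ECs. It lies at chr2:25517982-25546940 on the minus strand and overlaps Gm13433. Under PBS its level was 5.20, 6.02 and 5.81 FPKM in Normal ECs, 5.60, 5.14 and 5.69 FPKM in MMTV-PyMT ECs and 5.498, 4.74 and 5.24 FPKM in Implanted ECs. Those ranges all overlapped. Under cGAMP it was 5.85, 5.68 and 4.53 FPKM in Normal ECs (change -0.08, adjusted p = 0.587), 6.385, 5.92 and 6.385 FPKM in MMTV-PyMT ECs (change 0.16, adjusted p = 0.309) and 8.63, 7.155 and 8.33 FPKM in Implanted ECs (change 0.55, SE 0.10, adjusted p = 0.000259). In FPKM as deposited, the 3 Implanted cGAMP libraries were above all others. By share of recovered reads they were not, with 307 Traf2 reads of 10359559 in Implanted cGAMP 2 and 364 of 10488085 in Normal PBS 2. The response of Traf2 in Implanted ECs exceeded that in Normal ECs by 0.63 (SE 0.14, adjusted p = 0.00424), a difference that was 0.35 and did not pass with scaling by total reads (adjusted p = 0.0573) or equal sums of FPKM (0.37, adjusted p = 0.0845). Against MMTV-PyMT ECs the difference was 0.39 (95% interval 0.11 to 0.68, adjusted p = 0.0756), which passed without Normal cGAMP 3 or Implanted cGAMP 2 (lowest adjusted p = 0.0353).

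Birc2 and Birc3, the cIAP1 and cIAP2 genes, are neighbours on chromosome 9 with 11634 bases between them, at chr9:7818227-7837064 and chr9:7848699-7873186, both on the minus strand. They are related in sequence. Of 75-base transcript windows, 0.875% of those of Birc2 and 3.45% of those of Birc3 also occurred in a transcript of another gene, each other included.

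Birc2 rose in all tissues and most in Implanted ECs. In Normal ECs it was 11.1, 11.2 and 11.3 FPKM under PBS and 18.4, 18.75 and 15.1 FPKM under cGAMP (change 0.59, SE 0.11, adjusted p = 0.000864). In MMTV-PyMT ECs it was 6.27, 5.90 and 5.29 FPKM and then 9.75, 10.4 and 9.08 FPKM (change 0.66, SE 0.11, adjusted p = 0.000754). The cGAMP level in MMTV-PyMT ECs thus stayed below the PBS level in Normal ECs. In Implanted ECs Birc2 went from 6.73, 6.98 and 6.21 FPKM to 27.3, 21.1 and 19.5 FPKM (change 1.62, SE 0.11, adjusted p = 1.21e-08). The response in Implanted ECs exceeded that in Normal ECs by 1.03 (SE 0.16, adjusted p = 0.000318) and that in MMTV-PyMT ECs by 0.96 (SE 0.16, adjusted p = 0.000971). MMTV-PyMT minus Normal ECs was 0.07 (95% interval -0.26 to 0.40), and -0.05 with scaling by total reads.

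Birc3 had the second largest response to cGAMP of the 8 genes in Normal and MMTV-PyMT ECs, after Tnf, and in Implanted ECs its order with Tnf turned on single libraries, as given above. In Normal ECs it was 9.11, 9.06 and 10.3 FPKM under PBS and 26.3, 27.3 and 22.8 FPKM under cGAMP (change 1.33, SE 0.12, adjusted p = 1.13e-06). In MMTV-PyMT ECs it was 8.497, 6.56 and 6.90 FPKM and then 19.8, 19.0 and 18.7 FPKM (change 1.28, SE 0.12, adjusted p = 1.61e-06). No library of one treatment reached the range of the other. In Implanted ECs Birc3 went from 10.1, 10.03 and 11.6 FPKM to 49.7, 35.9 and 34.5 FPKM (change 1.81, SE 0.12, adjusted p = 1.21e-08). Its response in Implanted ECs was larger by 0.47 than in Normal ECs (95% interval 0.10 to 0.84, adjusted p = 0.0714) and by 0.52 than in MMTV-PyMT ECs (0.15 to 0.89, adjusted p = 0.0668), and neither difference passed. Both passed without Implanted cGAMP 3, and without Implanted cGAMP 2, where they were 0.54 (adjusted p = 0.0497) and 0.59 (adjusted p = 0.0466).

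The balance of the 2 cIAP transcripts can be read within each library. The ratio of Birc3 to Birc2 was 0.847 ± 0.055 in Normal PBS and 1.47 ± 0.04 in Normal cGAMP, 1.26 ± 0.13 and 1.97 ± 0.12 in MMTV-PyMT ECs, and 1.61 ± 0.24 and 1.76 ± 0.06 in Implanted ECs (mean ± SD, n = 3). Birc2 was the more abundant transcript in Normal PBS libraries alone, and in Implanted ECs the ranges of PBS (1.44 to 1.87) and cGAMP (1.71 to 1.82) overlapped.

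**Figure D2:**
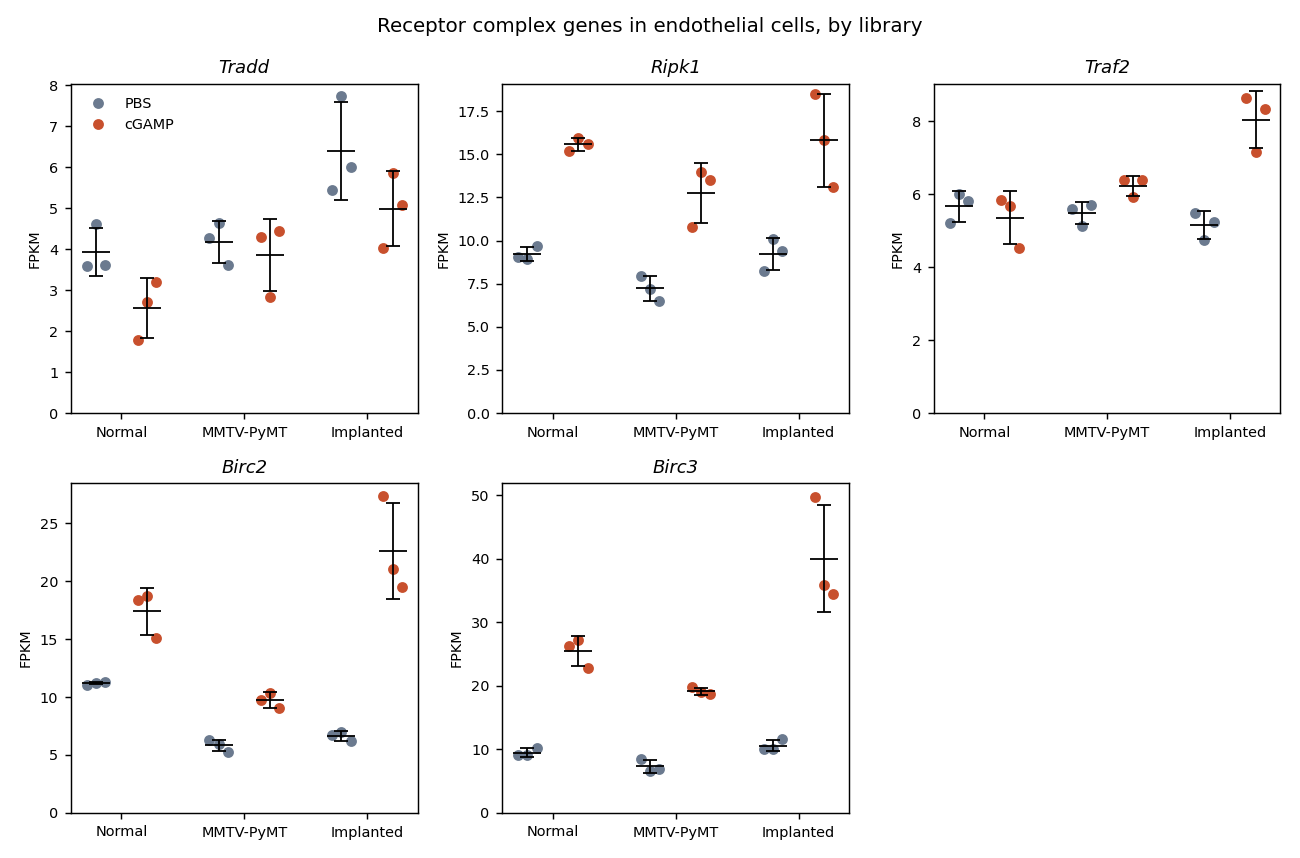
FPKM of Tradd, Ripk1, Traf2, Birc2 and Birc3 (vertical axes, from 0) in each library of Normal, MMTV-PyMT and Implanted ECs (horizontal axis). Points are libraries (grey PBS, orange cGAMP), lines are means and bars are SD (n = 3). Ripk1, Birc2 and Birc3 are above their PBS range under cGAMP in all tissues. In FPKM as deposited, Traf2 and Birc2 are highest in Implanted cGAMP, an order that depends on the library size used. Birc2 had 1047 reads of 11353828 in Implanted cGAMP 1 and a larger share, 966 of 10275891, in Normal cGAMP 2.

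Counted over the 8 genes, 4 rose and 1 fell in Normal ECs under cGAMP, where 13.7% of all tested genes rose and 18.2% fell. The risers were Tnf, Ripk1, Birc2 and Birc3, and Tradd fell. In MMTV-PyMT ECs 6 rose and 0 fell, with all tested genes at 7.42% and 4.57%. Tnfrsf1a and Tnfrsf1b were added to the former 4 there. In Implanted ECs 6 rose and 0 fell, with 20.3% and 18.8% of all tested genes, and Tnfrsf1b and Traf2 were the additions. All cGAMP libraries lay above all PBS libraries for 5, 7 and 6 of the 8 genes in Normal, MMTV-PyMT and Implanted ECs. Over all tested genes the shares were 20.95%, 14.79% and 22.45%. All lay below for 1 gene in Normal ECs, beside 27.97% of all tested genes. The median change of the 8 genes was 0.37 (Normal), 0.70 (MMTV-PyMT) and 0.95 (Implanted), beside -0.04, -0.04 and -0.01 over all tested genes. With scaling by total reads the median of all tested genes in Implanted ECs moved to -0.25, and the 6 rises there remained past the threshold under every scaling tried. The 0 falls did not: Tnfrsf1a fell with quantile normalization (-0.43, adjusted p = 0.000212), and Tnfrsf1a and Tradd both fell, 2 genes in all, with equal sums of FPKM (-0.32 and -0.52, adjusted p = 0.0185 and 0.0299) and with total reads (-0.36 and -0.56, adjusted p = 0.00154 and 0.0194).

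**Figure D3:**
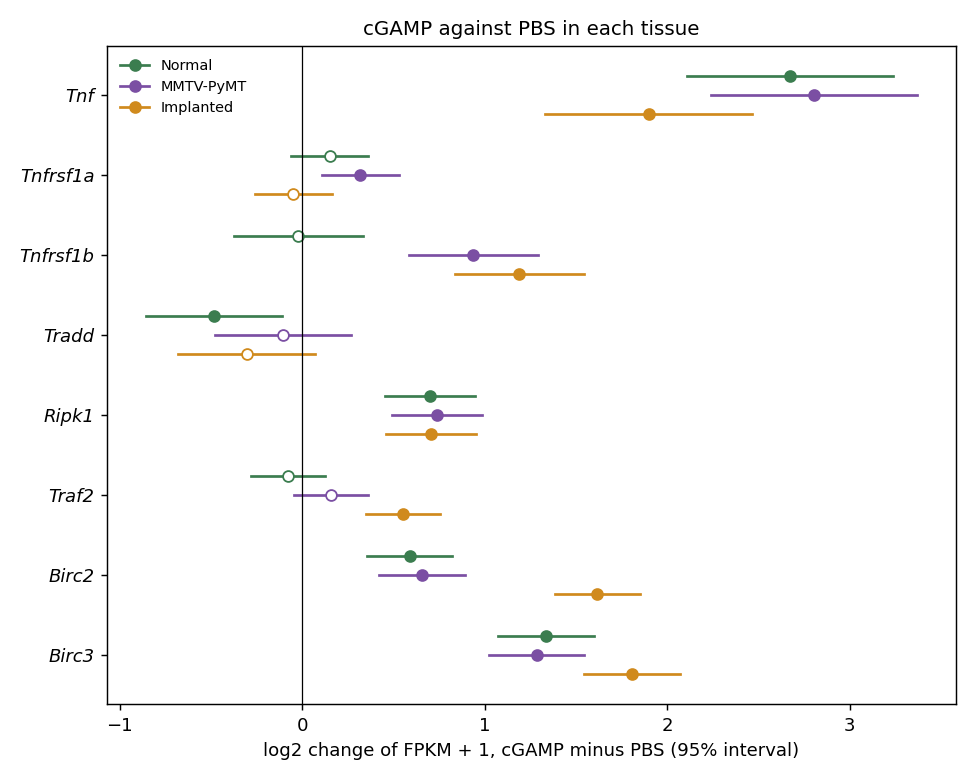
Log2 change of FPKM + 1 from PBS to cGAMP (horizontal axis) for the 8 genes (vertical axis) in Normal (green), MMTV-PyMT (purple) and Implanted ECs (orange). Circles are fitted changes, filled where the adjusted p was under 0.05, and lines are 95% intervals. Tnf reaches 2.80 in MMTV-PyMT ECs, Ripk1 stays between 0.70 and 0.74, and Tnfrsf1b, Traf2 and Birc2 differ between tissues.

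Differences of the cGAMP response between tissues passed in 1 gene for MMTV-PyMT minus Normal ECs (Tnfrsf1b, larger), where 5.48% of all tested genes had a larger and 2.9% a smaller change. They passed in 3 genes for Implanted minus Normal ECs (Tnfrsf1b, Traf2 and Birc2, all larger as deposited), with 12.5% and 6.09% of all tested genes. Under other scalings Tnf and Tnfrsf1a also passed there, with smaller responses, so that 3 were larger and 2 smaller with quantile normalization, and 2 larger and 2 smaller with equal sums or total reads, where Traf2 was lost. The difference of Tnfrsf1a was -0.54, -0.49 and -0.51 in these scalings (adjusted p = 0.00209, 0.0265 and 0.00509), against -0.20 (adjusted p = 0.356) as deposited. For Implanted minus MMTV-PyMT ECs 1 gene passed (Birc2, larger), with 7.34% and 3.72%, and under each of these scalings Tnfrsf1a passed as well, with a smaller response. For Tnf the differences were 0.13 (95% interval -0.67 to 0.93, adjusted p = 0.873) for MMTV-PyMT minus Normal ECs, -0.77 (-1.57 to 0.03, adjusted p = 0.169) for Implanted minus Normal ECs and -0.91 (-1.70 to -0.11, adjusted p = 0.143) for Implanted minus MMTV-PyMT ECs. None passed, and with scaling by total reads the smaller response of Tnf in Implanted than in Normal ECs passed at -1.11 (adjusted p = 0.0495).

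Levels without the agonist also differed between tissues. For MMTV-PyMT against Normal ECs under PBS, 0 of the 8 genes were higher and 5 were lower, beside 29.8% and 26.6% of all tested genes. The lower genes were Tnfrsf1b (-1.26, SE 0.17, adjusted p = 1.1e-05), Birc2 (-0.84, SE 0.11, adjusted p = 1.08e-05), Birc3 (-0.34, adjusted p = 0.0282), Ripk1 (-0.32, adjusted p = 0.0286) and Tnfrsf1a (-0.31, adjusted p = 0.0144). For Birc3 and Ripk1 this depended on single libraries, and without Normal PBS 3, MMTV-PyMT PBS 2 or MMTV-PyMT PBS 3 neither passed (highest adjusted p = 0.113 and 0.116), Ripk1 also not without Normal PBS 1. Without Normal PBS 3, Tnfrsf1a did not pass either (adjusted p = 0.0598). Markers of other cells differed in the same comparison: 3 of 4 epithelial markers were higher (Epcam 1.75, Krt8 1.51 and Krt18 1.02), Cd14 was higher (0.74), Ptprc (-1.88), Cd3e (-1.98) and Cd79a (-1.78) were lower, and 4 of 7 endothelial and 4 of 6 mural and fibroblast markers were lower. Their part in the differences of the members was not tested. Tnf was 0.60 higher in MMTV-PyMT ECs and did not pass (95% interval 0.04 to 1.17, adjusted p = 0.0642). The difference of Tnf passed without MMTV-PyMT cGAMP 1 or Implanted PBS 2 (lowest adjusted p = 0.0147) and with a pseudocount of 0.1 (0.76, adjusted p = 0.0307).

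For Implanted against Normal ECs under PBS, 2 of the 8 were higher and 2 lower, beside 25% and 23.6% of all tested genes. Tnf was higher by 1.49 (SE 0.27, adjusted p = 0.000234) and Tradd by 0.58 (SE 0.18, adjusted p = 0.0122), while Birc2 was lower (-0.68, SE 0.11, adjusted p = 0.000105) and so was Tnfrsf1b (-0.44, SE 0.17, adjusted p = 0.0398). The difference of Tradd was 0.43 and did not pass with scaling by total reads (adjusted p = 0.0658), and it did not pass without Implanted PBS 2 (adjusted p = 0.0662). That of Tnfrsf1b did not pass without Normal PBS 3 or without any of the 3 Implanted PBS libraries (highest adjusted p = 0.197). Tnfrsf1a (-0.21, adjusted p = 0.0863) passed without Implanted PBS 2 or Implanted cGAMP 1 (lowest adjusted p = 0.0444) and with scaling by total reads (-0.40, adjusted p = 0.000666), where Traf2 was lower too (-0.27, adjusted p = 0.02), so that 1 gene was higher and 4 were lower. In this comparison 3 of 7 endothelial markers were higher and 2 lower, 4 of 6 mural and fibroblast markers were lower and 1 was higher, Cd14 (1.09) and Epcam (0.70) were higher, and Ptprc (-1.42) and Cd79a (-1.62) were lower. Their part was not tested.

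For Implanted against MMTV-PyMT ECs under PBS, 5 of the 8 were higher and 0 lower, beside 20.8% and 24.6% of all tested genes. They were Tnf (0.89, SE 0.27, adjusted p = 0.0127), Tnfrsf1b (0.83, SE 0.17, adjusted p = 0.000863), Tradd (0.51, adjusted p = 0.0276), Birc3 (0.48, adjusted p = 0.00473) and Ripk1 (0.32, adjusted p = 0.0368). With scaling by total reads Tradd and Ripk1 no longer passed (adjusted p = 0.105 and 0.157). Tnf did not pass without MMTV-PyMT PBS 2 or Implanted PBS 3 (highest adjusted p = 0.0557), Tradd without MMTV-PyMT PBS 1, MMTV-PyMT PBS 3 or Implanted PBS 2 (0.13) and Ripk1 without MMTV-PyMT PBS 2, MMTV-PyMT PBS 3, Implanted PBS 2 or Implanted PBS 3 (0.141). Of the markers in this comparison, 4 of 7 endothelial ones were higher and 1 lower (median 0.60), 3 of 4 epithelial ones were lower (median -1.04, Epcam -1.05, Krt8 -1.10), and all 10 leukocyte and myeloid changes were positive (median 0.51), of which Cd68 passed (0.80). Their part in the higher level of the 5 genes was not tested. These tissue comparisons share their PBS libraries with the cGAMP comparisons of the same tissue, so a low PBS level also enters the response.

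**Figure D4:**
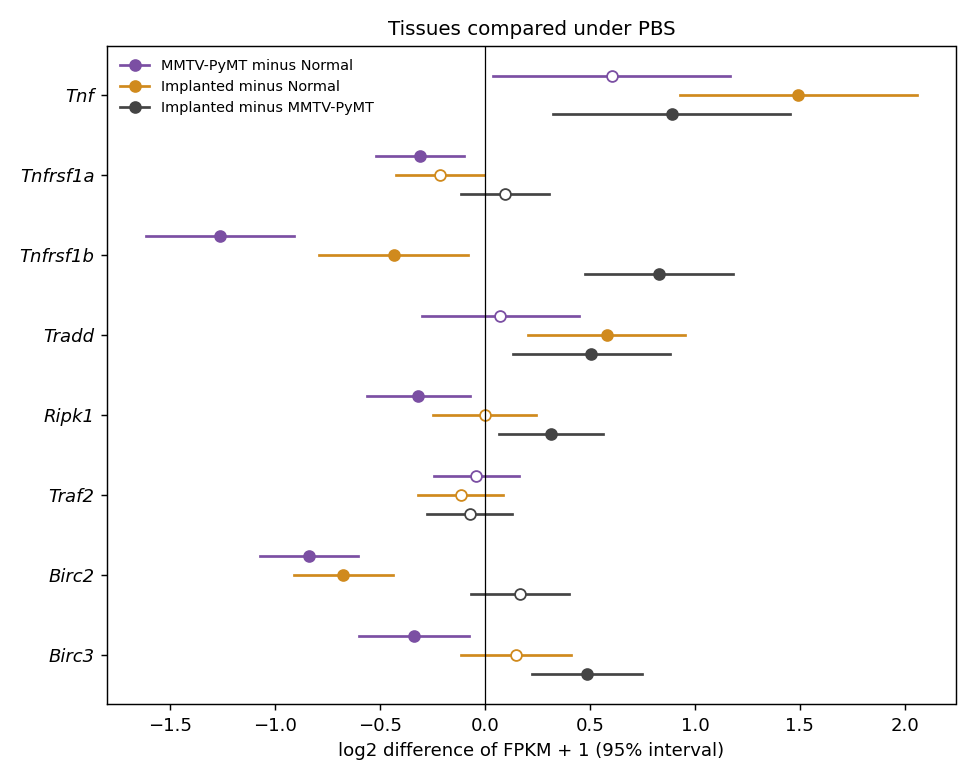
Log2 difference of FPKM + 1 between tissues under PBS (horizontal axis) for the 8 genes (vertical axis), MMTV-PyMT minus Normal in purple, Implanted minus Normal in orange and Implanted minus MMTV-PyMT in dark grey. Circles are fitted differences, filled where the adjusted p was under 0.05, and lines are 95% intervals. Tnfrsf1b and Birc2 are lower in both tumours than in Normal ECs, and Tnf is highest in Implanted ECs.

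Other genes of the pathway were followed in lists of known function, by counts and by medians. Values of these lists and of the cell markers are for FPKM as deposited, and their calls under the other scalings were not examined. Among the members, scaling by total reads lowered the changes in Implanted ECs, that of Traf2 from 0.55 to 0.27, so small rises there are uncertain. Each count under cGAMP stands beside the shares over all tested genes, 13.7% up and 18.2% down in Normal, 7.42% and 4.57% in MMTV-PyMT and 20.3% and 18.8% in Implanted ECs. Of 5 tested genes for partners in the receptor complex (LUBAC, the ligase that adds linear ubiquitin chains, and related factors), 1, 1 and 3 rose under cGAMP in Normal, MMTV-PyMT and Implanted ECs, and none fell. Rnf31, the catalytic LUBAC subunit, rose in all, by 0.92, 1.88 and 2.03, and its mean level reached 42.9 FPKM in Implanted cGAMP. Its response was larger in both tumours than in Normal ECs (differences 0.96 and 1.11, adjusted p = 0.000866 and 3.58e-05). Traf1, a TRAF that binds TRAF2, rose in Implanted ECs by 1.39, and the LUBAC subunit Rbck1 rose there by 0.23 (adjusted p = 0.0417). Traf5 was below the filter.

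Of 6 ubiquitin editors, which trim or bind the chains on RIPK1, 4, 2 and 4 rose and none fell. Tnfaip3, the A20 enzyme that dampens NF-κB, rose by 1.98, 2.17 and 2.01, and its partner Tnip1 by 0.78, 1.19 and 2.22. Cyld, a deubiquitinase, rose in Implanted ECs by 0.67, where Tnip2 rose by 0.95. Of 10 kinases and kinase adaptors 4, 1 and 6 rose and 1, 1 and 1 fell. Tbk1, which is also the kinase downstream of STING, rose by 0.49, 0.52 and 1.60, and Mapkapk2, which restrains RIPK1, rose by 0.63 in Normal and 1.34 in Implanted ECs. Ikbkg, the NEMO scaffold, fell by 0.24 in Normal and 0.30 in Implanted ECs, and Tab3 fell by 0.47 in MMTV-PyMT ECs.

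Of the 5 genes of the death complex 4 rose in each tissue. The necroptosis kinase gene Ripk3 rose by 1.74, 1.60 and 2.06, and Mlkl, the executor of necroptosis, by 1.82, 1.41 and 1.95. Casp8, the initiator caspase, rose by 0.43, 0.60 and 1.65, and Cflar, its catalytically inactive inhibitor cFLIP, by 0.47, 0.64 and 1.54. For both the response in Implanted ECs was larger than in Normal ECs (differences 1.22 and 1.08, adjusted p = 0.00106 and 0.00187) and than in MMTV-PyMT ECs (1.05 and 0.90, adjusted p = 0.00488 and 0.00933). Fadd, the adaptor that binds Casp8, fell by 0.44 in Implanted ECs. The median change of the list was 0.47, 0.64 and 1.65.

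Of 9 genes for shedding of TNFα and decay of its mRNA, 2, 1 and 4 rose and 3, 0 and 0 fell, which in Normal and MMTV-PyMT ECs is near the shares over all tested genes. Adam17, the sheddase, fell by 0.44 in Normal ECs and rose by 0.39 in Implanted ECs, where Rhbdf2, which carries the sheddase to the surface, rose by 1.24. Timp3, an inhibitor of the sheddase, rose by 0.61, 1.04 and 1.41. Zfp36, which promotes decay of Tnf mRNA, fell by 0.48 in Normal ECs, and Zc3h12a, an RNase of inflammatory transcripts, rose by 0.65 in Normal and 0.58 in Implanted ECs. The medians of this list were -0.08, 0.22 and 0.20.

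Among other ligands of the TNF superfamily, 7 of 16 were listed, and 2, 1 and 2 rose and 1, 0 and 0 fell, near the shares over all tested genes. Tnfsf10, which encodes the death ligand TRAIL, rose by 0.73, 2.46 and 2.99, to a mean of 176 FPKM in Implanted cGAMP. Lta, the closest relative of Tnf, was not analysed here. Of 21 tested genes for other receptors of the superfamily 4, 5 and 10 rose and 3, 1 and 2 fell. Cd40 rose by 1.81 in MMTV-PyMT and by 3.37 in Implanted ECs and did not pass in Normal ECs (0.60, adjusted p = 0.0655). Tnfrsf11b, a decoy receptor, rose by 1.61 and 2.07 in the 2 tumours, Fas by 0.59 and 1.29, and Eda2r rose in all 3 tissues, by 0.52 (Normal), 0.76 (MMTV-PyMT) and 1.64 (Implanted). Tnfrsf12a rose by 1.47 in Normal and 1.12 in Implanted ECs. Tnfrsf21 fell by 0.94 in Implanted ECs, and the decoy receptor genes Tnfrsf22 and Tnfrsf23 fell by 0.93 and 0.70 in Normal ECs. In MMTV-PyMT and Implanted ECs Tnfrsf23 rose, by 0.47 and 0.56.

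Of 11 genes that ECs are known to switch on in response to TNFα, 9, 9 and 8 rose and none fell, with medians of 0.99, 1.57 and 0.99. Ccl2, a monocyte chemokine, rose by 4.28, 4.95 and 5.82, and Il6 by 2.54, 2.46 and 3.23. Vcam1, a leukocyte adhesion molecule, rose by 0.996, 3.44 and 3.42, more in either tumour than in Normal ECs (differences 2.45 and 2.42, adjusted p = 0.00108 and 0.000205). Icam1 rose by 0.99, 1.68 and 2.71, and F3, the tissue factor gene, rose in Normal ECs by 1.44. These genes respond to other stimuli as well, and the part of TNFα in their rise was not tested.

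**Figure D5:**
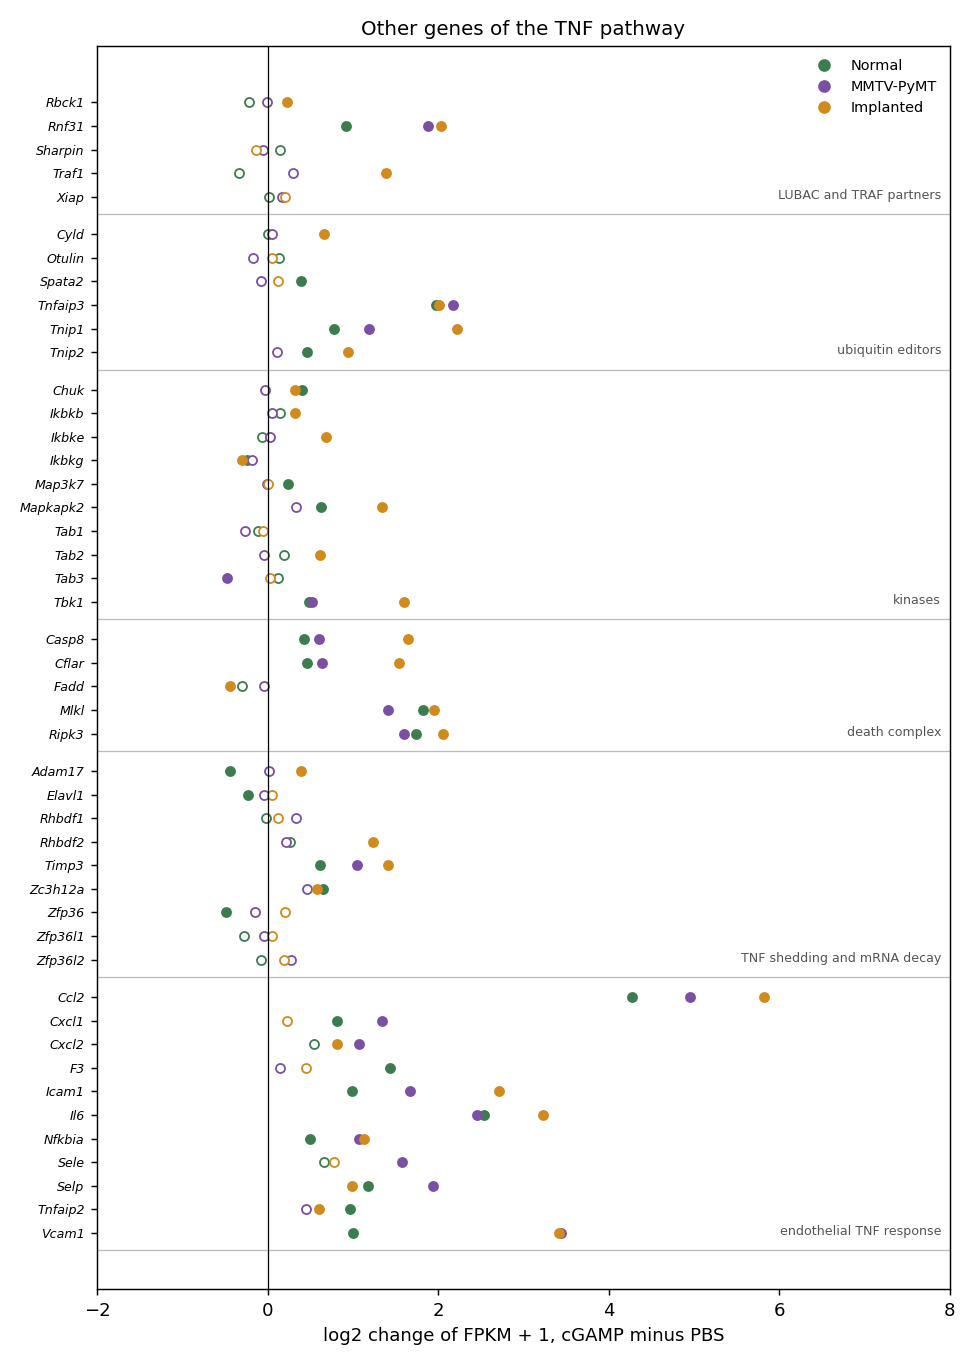
Log2 change of FPKM + 1 from PBS to cGAMP (horizontal axis) for the tested genes of 6 pathway lists (vertical axis) in Normal (green), MMTV-PyMT (purple) and Implanted ECs (orange). Circles are fitted changes, filled where the adjusted p was under 0.05, and grey lines separate the lists. Ccl2 has the largest changes, up to 5.82, and Rnf31, Tnfaip3, Ripk3, Mlkl and Ccl2 are filled in all tissues.

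Genes whose level ran most like that of each member over the 18 libraries were also named, by Pearson's r of log2(FPKM + 1). All libraries and the group differences enter these values, so they describe a shared order of groups. For Tnf they were Tnfaip3 (r = 0.966), Hcar2 (0.948) and the chemokine Cxcl10 (0.944). Tnfrsf1a was most like Grrp1 (0.914), Pim3 (0.889) and Sh3pxd2a (0.879), and Tnfrsf1b most like Trim12c (0.965), Lck (0.953) and Stom (0.953). Tradd was most like Tepsin (0.899), Sirt6 (0.883) and Apba3 (0.880). Ripk1 was most like Gm19684 (0.957), Gm18853 (0.955) and Mir155hg (0.952), the host transcript of miR-155. Traf2 was most like Iqgap1 (0.950), Morc3 (0.931) and Selenot (0.915), Birc2 most like Tgm2 (0.973), Elmod2 (0.969) and Klf8 (0.966), and Birc3 most like Stx11 (0.986), the inflammatory caspase gene Casp4 (0.985) and Mndal (0.983). No member was among the 3 genes most like another member.

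Under cGAMP in Implanted ECs, 2 of the 10 tested leukocyte and myeloid markers rose, Cd68 by 0.75 and Fcer1g by 1.26. This count is near the share of all tested genes that rose there, 20.3%. All 10 changes were positive (median 0.81). Of the same markers, 1 rose in Normal and 1 in MMTV-PyMT ECs, beside 13.7% and 7.42% of all tested genes. It was Cd14 both times, a monocyte gene with 37.3 to 118 FPKM over all libraries. The marker medians for Normal and MMTV-PyMT ECs were -0.33 and -0.04. The fibroblast markers Dcn and Col1a1 also rose in Implanted ECs, by 0.91 and 0.78, and no epithelial marker passed in any tissue. Without Implanted cGAMP replicate 2, the library with the highest leukocyte sum, the same number of the 8 genes rose in Implanted ECs (6). The change of Tnf was then 1.69, against 1.90 with that library. The others were 1.87 for Birc3, 1.66 for Birc2, 1.20 for Tnfrsf1b, 0.70 for Ripk1 and 0.62 for Traf2. The part of leukocytes in these changes was not tested.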

How the data were processed

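ECs were profiled in 18 libraries, 3 in each of 6 groups. The authors' processing notes name FastQC, STAR 2.7, HTSeq and the mm10 build, and the authors deposited FPKM per gene, while the FPKM calculation and the use of strand in counting were not given in the sources used here. Of the 18 columns, 12 name the tumour model, and the other 6 were assigned to normal fat pad by elimination. The table holds 16248 genes, none with a value at 0, and it is not known how genes were chosen for it. With GENCODE M21 gene lengths, 97.07% of genes gave whole reads in every library (tolerance 0.05 reads). For the other genes a length that gave whole reads was searched for, which left 4 genes without recovered reads. The depth of 9170910 to 12178526 reads sums both kinds, so it rests in part on these fitted lengths.

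Changes were fitted with limma 3.58.1 in R 4.3.3 (lmFit, contrasts.fit, eBayes with a trend, two-sided) on log2(FPKM + 1) of genes with at least 1 FPKM in at least 3 libraries, which kept 13983 and left out 2265. All 18 libraries entered 1 fit with 9 contrasts and no covariate, and p-values were adjusted by Benjamini-Hochberg over all tested genes in each contrast. A gene passed with an adjusted p under 0.05. The scripts were tested on simulated data. P-values measure the spread between these samples. All 8 members were named in each comparison, genes of the pathway lists from fixed lists, and the 3 genes most like each member by Pearson's r. The members and lists were chosen with earlier results of these data known. Alternatives were a pseudocount of 0.1, no filter, a mean FPKM of at least 5, other scalings, a replicate block, no trend, voom on recovered reads, a fold limit and leaving out each library. Scaling by total reads was added after seeing the data. Python 3.11.15, numpy 2.4.6, pandas 2.3.3 and matplotlib 3.10.9 were used for tables and figures.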

Additional observations from a re-analysis of the deposited data

Results flagged for a closer look

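The response to cGAMP differed between tissues in 5 tests of the interaction that passed (limma, n = 3 per group, adjusted over 13983 genes). Each of the 8 genes was tested for MMTV-PyMT minus Normal, Implanted minus Normal and Implanted minus MMTV-PyMT ECs. Of all tested genes, 5.48%, 12.5% and 7.34% had a larger and 2.9%, 6.09% and 3.72% a smaller change in these comparisons. Tnfrsf1b had a larger change in MMTV-PyMT than in Normal ECs, by 0.96 on the log2 scale (95% interval 0.46 to 1.46, adjusted p = 0.0206), and in Implanted than in Normal ECs, by 1.21 (0.71 to 1.71, adjusted p = 0.0021). The former was lost without any of 5 libraries (Normal PBS 3, Normal cGAMP 2, Normal cGAMP 3, MMTV-PyMT PBS 3 or MMTV-PyMT cGAMP 2, highest adjusted p = 0.0614). For Traf2 the change was larger in Implanted than in Normal ECs by 0.63 (0.34 to 0.91, adjusted p = 0.00424), and this was lost with equal sums of FPKM (0.37, adjusted p = 0.0845) and with scaling by total reads (0.35, adjusted p = 0.0573). Birc2 changed more in Implanted than in Normal ECs by 1.03 (0.70 to 1.36, adjusted p = 0.000318) and more in Implanted than in MMTV-PyMT ECs by 0.96 (0.63 to 1.29, adjusted p = 0.000971).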

How the results depend on the processing

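Over 9 counts of members that passed and 72 log2 values of members, 10 alternatives and 18 fits that each left out 1 library were compared with the reported values, and the cause of a change was not tested. With a fold limit of 2 added, the counts were 2 in Normal and 2 in MMTV-PyMT ECs for cGAMP, 0 for the difference of MMTV-PyMT minus Normal ECs and 0 for Implanted minus MMTV-PyMT ECs, and under PBS 1 for MMTV-PyMT against Normal, 1 for Implanted against Normal and 0 for Implanted against MMTV-PyMT ECs. Fewer genes can pass under that limit by construction. The difference of Implanted minus Normal ECs passed in 5 members with quantile normalization, 3 larger and 2 smaller (Tnf -1.23, Tnfrsf1a -0.54). That of Implanted minus MMTV-PyMT ECs passed in 2 with quantile normalization, equal sums of FPKM or scaling by total reads, 1 larger and 1 smaller (Tnfrsf1a), and in 2, both larger, with a mean FPKM of at least 5. Under PBS, Implanted against MMTV-PyMT ECs passed in 3 with scaling by total reads.

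None of the values below, which changed sign, had passed as reported. For the difference of MMTV-PyMT minus Normal ECs, Tnf became -0.0062 with a pseudocount of 0.1, -0.0224 with quantile normalization, -0.0079 with equal sums, -0.0110 with total reads and -0.0305 with voom, Ripk1 became -0.0287, -0.0400 and -0.0796 with quantile normalization, equal sums and total reads, and Birc2 became -0.0107 and -0.0487 with equal sums and total reads. For Implanted minus Normal ECs, Tradd became -0.0339 and -0.0590 with equal sums and total reads, and Ripk1 -0.2217, -0.2750 and -0.2878 with the 3 scalings. Tnfrsf1b became -0.0580 for Implanted minus MMTV-PyMT ECs with quantile normalization. Under PBS, Tradd became -0.1556 for MMTV-PyMT against Normal with equal sums, Birc3 -0.1318 and -0.0226 for Implanted against Normal with equal sums and total reads, and Tnfrsf1a -0.0661 and -0.0620 for Implanted against MMTV-PyMT with quantile normalization and total reads.

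Leaving out each library gave counts of 4 to 5, 5 to 6 and 6 to 6 for cGAMP in Normal, MMTV-PyMT and Implanted ECs. Counts were 0 to 1, 3 to 4 and 1 to 3 for the differences of MMTV-PyMT minus Normal, Implanted minus Normal and Implanted minus MMTV-PyMT ECs. Under PBS they were 2 to 6, 3 to 5 and 3 to 5 for MMTV-PyMT against Normal, Implanted against Normal and Implanted against MMTV-PyMT. Signs turned within these ranges: for cGAMP, Tnfrsf1b -0.1829 to 0.1241 and Traf2 -0.1331 to 0.0219 in Normal, Tradd -0.1959 to 0.0549 in MMTV-PyMT and Tnfrsf1a -0.1506 to 0.0205 in Implanted ECs. For MMTV-PyMT minus Normal ECs they were Tnf -0.2475 to 0.3257, Ripk1 -0.0236 to 0.1491, Birc2 -0.0280 to 0.1208 and Birc3 -0.1254 to 0.0488. Ripk1 ranged from -0.1038 to 0.1298 for Implanted minus Normal, from -0.1451 to 0.0885 for Implanted minus MMTV-PyMT and from -0.0624 to 0.0701 for Implanted against Normal under PBS.

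Same-numbered libraries of the 2 treatments had correlations of their deviations from -0.291 to 0.263, so the numbers were not taken to pair samples. With a replicate block the change of Tnfrsf1a in MMTV-PyMT ECs (0.3182) had an adjusted p of 0.0738 and the PBS difference of Tnfrsf1b for Implanted against Normal ECs (-0.4364) one of 0.0508, and no other call of a member changed. Depth limits the low genes most, Tnf with 45 reads and Tradd with 38 reads in their lowest libraries.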
